A study of Mus musculus with 200 samples.

Results

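Rnf2 encodes RING1B, the RING finger subunit of Polycomb repressive complex 1 (PRC1), and its knockout in the mouse embryo at embryonic day (E) 5.0 is described here from 3 libraries set against the 3 wild-type control libraries of the same screen batch. These 6 libraries were chosen by their labels, out of 148 in the screen table and 200 in the series. Polyadenylated RNA of about 10 to 100 cells per library was amplified over 17 cycles by Smart-seq2, which copies whole transcripts, from embryos cultured through the peri-implantation period and labelled epiblast (Epi), the tissue that forms the embryo proper. Knockouts were made with C-CRISPR, in which several guide RNAs are aimed at 1 gene. The other groups used are the knockouts (KO) of Atrx, Cbx2, Cbx7 and Jarid2 of batch 3, which share its wild-type controls, the Suz12 KO of batch 2 with wild-type controls of its own, and the Suz12 Eed double KO with wild-type controls in a separately normalized table. Every one of these groups was labelled Epi at E5.0 with 3 libraries, and neither strain nor the culture, pool or embryo behind a library number is given in the sources used here.

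PRC1 places ubiquitin on histone H2A through RING1B or its paralogue RING1A, and it works beside PRC2, whose core subunits Suz12 and Eed are needed for methylation of lysine 27 of histone H3. Together they keep developmental regulators such as the Hox genes silent, and variant PRC1 complexes also bind promoters of germline genes. Mouse embryos without Rnf2 are known to arrest around gastrulation.

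Values are TPM, a level scaled for transcript length and for the library's total. Without read counts the depth of a library is unknown. The 3 Rnf2 KO libraries had between 10637 and 10807 genes at 1 TPM or more, and the controls between 10427 and 10506. Libraries of a batch 3 group were very alike. On log2(TPM + 1), the 3 Rnf2 KO libraries correlated at 0.993 to 0.994 and the 3 controls at 0.988 to 0.989, while the lowest correlation within a group had a median of 0.975 over 50 groups of the screen. The median SD within a group was 0.242 (log2) in batch 3 and 0.562 in the other batches. The labels call the libraries biological replicates. Adjusted p-values measure the spread between libraries, which may be technical here. The main test took its spread within groups from the whole screen, and it still counted each library as a replicate. Calls against control were also checked with the Rnf2 KO and control groups each averaged to 1 library. The other batch 3 groups kept their 3 libraries in that fit.

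The label Epi was checked against marker genes. The 8 epiblast markers summed to 264 to 276 TPM in Rnf2 KO libraries and 335 to 354 TPM in controls. Within them, the pluripotency factor Sox2 was at 0.921, 0.629 and 0.241 TPM in Rnf2 KO libraries and at 1.74, 2.68 and 4.63 TPM in controls, and the epiblast genes Otx2 and Fgf5 stayed below 1 TPM in all 6 libraries but 1 control. Utf1, the most abundant of the 8, was at 199.5, 202.3 and 210.7 TPM in Rnf2 KO libraries and at 208.3, 202.7 and 195.1 TPM in controls. The markers of other tissues were far higher. Trophectoderm and extraembryonic ectoderm markers summed to 6309 to 6612 TPM in Rnf2 KO libraries and 9127 to 9368 TPM in controls, and primitive endoderm markers to 5168 to 5470 TPM in Rnf2 KO libraries and 5315 to 5549 TPM in controls. Prl3d1, a hormone of trophoblast giant cells, averaged 5866 TPM in the batch 3 controls, the highest mean among the 10 control groups of the screen. Transcripts typical of extraembryonic tissue were thus abundant in both groups, and the share of each tissue was not measured. In such bulk libraries, fewer cells of a type and less RNA per cell cannot be told apart.

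The targeted gene was lower in the knockout. Rnf2 (mm10, chromosome 1, 151458004 to 151500955, minus strand, protein coding) was at 32.2, 27.8 and 33.5 TPM in Rnf2 KO libraries and at 47.8, 49.9 and 61.2 TPM in controls, so the groups did not overlap. The log2 difference was -0.74 (SE 0.29), with an adjusted p of 0.304 in limma's screen-wide fit and 0.000666 with batch 3 fitted alone. Against the 4 other knockouts of the batch, with means from 57.9 TPM in Cbx2 KO to 69.9 TPM in Cbx7 KO, the difference was -1.04 (SE 0.23, adjusted p = 0.00248). Guide-directed edits need not remove a transcript, and Rnf2 overlaps Trmt1l on the other strand, so this level is no measure of the protein. Ring1, which encodes RING1A, was at 1.60, 0.65 and 0.851 TPM in Rnf2 KO libraries and at 0.583, 0.421 and 1.54 TPM in controls, and these overlapped.

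Of 10792 genes tested, 198 (1.83%) differed between Rnf2 KO and control at an adjusted p under 0.05, 112 (1.04%) higher and 86 (0.797%) lower. Groups did not overlap for 197 of the 198, against 34.9% of all genes tested. With quantile normalization 130 were higher and 152 lower. Averaging each batch 3 group to 1 library left 25 calls (0.232%), 16 higher (0.148%) and 9 lower (0.0834%), while batch 3 fitted alone gave 1654 (15.3%, with 10% higher and 5.29% lower), 191 of the 198 among them. Without Rnf2 KO replicate 1 the count was 128. The plot of mean levels shows the calls at all levels of expression.

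**Figure D1:**
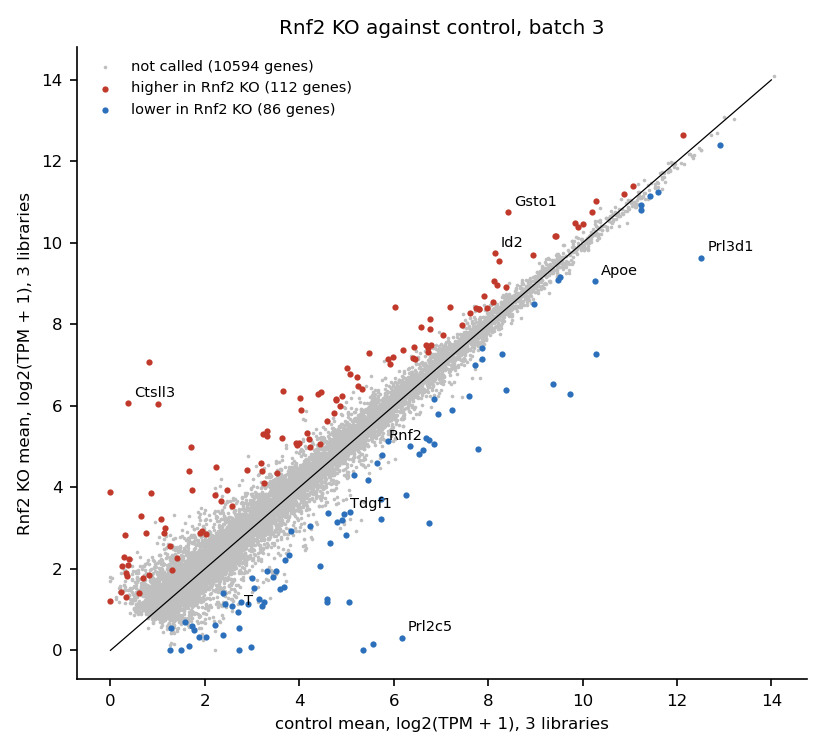
Mean level of each of the 10792 tested genes over the 3 Rnf2 KO libraries (vertical axis) and the 3 control libraries (horizontal axis) of batch 3, both as log2(TPM + 1), with the line of equal levels. The 112 red genes lie above the line and the 86 blue genes below it, with Prl3d1 and Prl2c5 among the farthest below and Ctsll3 among the farthest above.

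Tdgf1, T, Lef1, Etv5, Sp5, Zscan10 and Dppa5a, genes of the embryonic lineage, were lower in Rnf2 KO than in controls and lower than the mean of the 4 other knockouts of the batch. Against each of the 4 alone, Tdgf1, T, Lef1 and Etv5 passed every time, Dppa5a missed against Cbx2 KO (adjusted p = 0.0648), Sp5 against Cbx2 KO and Cbx7 KO, and Zscan10 against all but Atrx KO. Tdgf1, the Nodal co-receptor also called Cripto, was at 9.87, 7.16 and 10.6 TPM in Rnf2 KO libraries and at 27.1, 26.6 and 35.8 TPM in controls. It fell by 1.60 on the log2 scale (SE 0.23, adjusted p = 2.35e-07), and differed by -1.74 from the mean of the 4 other knockouts (SE 0.19, adjusted p = 2.35e-12). Every Rnf2 KO library was below every library of the other 5 genotypes of the batch. T, the mesoderm factor Brachyury (chromosome 17, 8434423 to 8442496), was at 1.08, 1.01 and 0.70 TPM in Rnf2 KO libraries and at 8.04, 3.85 and 4.64 TPM in controls, a change of -1.71 (SE 0.34, adjusted p = 0.000306), and of -1.79 against the other knockouts (adjusted p = 7.83e-07). Lef1, a nuclear partner of beta-catenin in Wnt signalling, was at 1.05, 1.14 and 1.17 TPM in Rnf2 KO libraries and at 4.34, 5.01 and 5.44 TPM in controls (-1.48, adjusted p = 0.00121, and -1.60 with an adjusted p of 3.11e-06 against the other knockouts). For both genes the Rnf2 KO libraries were the lowest of the batch.

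Etv5, an ETS factor induced by FGF signalling, averaged 2.87 ± 0.175 TPM in Rnf2 KO and 10.4 ± 2.0 TPM in controls (SD, n = 3 each; log2 -1.54, adjusted p = 0.0115 in limma's fit). Sp5, a Wnt target, averaged 1.64 ± 0.83 TPM in Rnf2 KO and 4.22 ± 0.73 TPM in controls (-1.03, adjusted p = 0.000801), and the pluripotency zinc finger gene Zscan10 averaged 3.61 ± 1.36 TPM in Rnf2 KO and 11.9 ± 2.6 TPM in controls (-1.51, adjusted p = 0.024). All 3 were also lower than the mean of the other knockouts, with adjusted p-values of 1.17e-05 for Etv5, 0.00601 for Sp5 and 0.0132 for Zscan10. Dppa5a, an RNA-binding protein of pluripotent cells, was far more abundant, at 5417, 5480 and 5284 TPM in Rnf2 KO libraries and at 7893, 7765 and 7577 TPM in controls. It fell by 0.52 (SE 0.11, adjusted p = 0.000438). Gdf3, Tdh and Slc7a3 were chosen after their values were seen. Gdf3, a TGF-beta family ligand of pluripotent cells, averaged 8.14 ± 0.85 TPM in Rnf2 KO and 28.9 ± 3.3 TPM in controls (-1.71, adjusted p = 0.00434). Tdh, the threonine dehydrogenase on which mouse embryonic stem cells depend, averaged 74.5 ± 4.9 TPM in Rnf2 KO and 192.7 ± 3.4 TPM in controls (-1.36, adjusted p = 0.000645). Slc7a3, a transporter of basic amino acids, averaged 9.31 ± 3.03 TPM in Rnf2 KO and 23.4 ± 5.6 TPM in controls (-1.26, adjusted p = 0.00328).

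**Figure D2:**
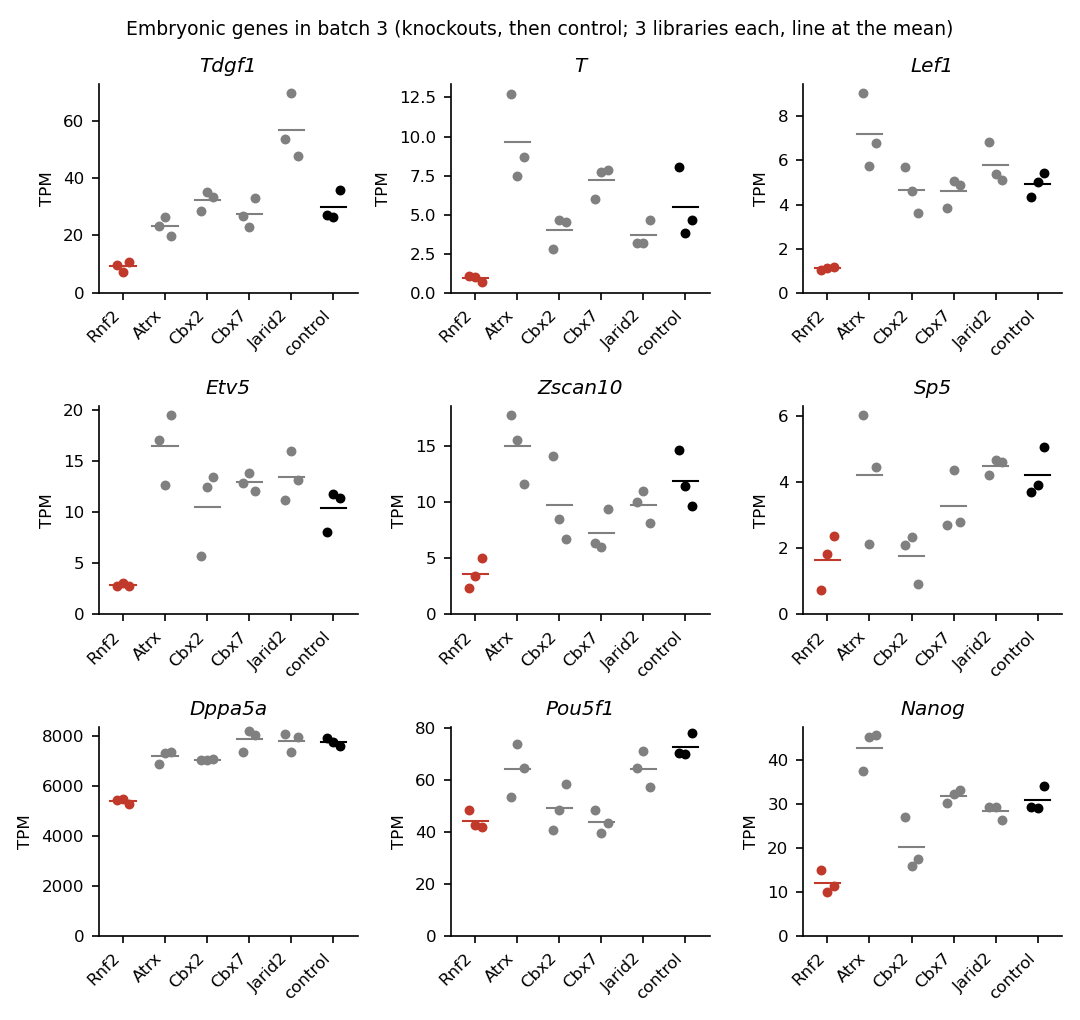
Levels in TPM of 9 embryonic genes in the 6 genotypes of batch 3, 1 point per library and a line at the mean of 3. Rnf2 KO is lowest for Tdgf1, T, Lef1, Etv5, Zscan10, Dppa5a and Nanog in every library, while Sp5 and Pou5f1 overlap with other knockouts.

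As lists, 2 of the 9 tested gastrulation genes fell and 0 rose (22 listed, 13 below the expression filter), with a median log2 of -1.03 over the tested members beside 0.09 over all genes, of which 0.797% were called lower. Of 15 core pluripotency genes 2 fell and 0 rose (median -0.32), of 13 tested formative and primed pluripotency genes 2 fell and 0 rose (median -0.24), and of 18 tested naive pluripotency genes 1 fell and 0 rose (median -0.04). With averaged libraries all of these calls were lost. With batch 3 fitted alone 6 gastrulation, 6 core, 4 formative and primed and 4 naive pluripotency genes fell, beside 5.29% of all genes. In that fit 1, 0, 2 and 3 members of these lists rose, beside 10% of all genes. The best-known pluripotency members did not pass in the screen-wide fit or with averaged libraries. Pou5f1, which encodes OCT4, was at 48.4, 42.6 and 41.9 TPM in Rnf2 KO libraries and at 70.4, 69.9 and 78.3 TPM in controls (-0.71, adjusted p = 0.681). Nanog was at 14.9, 9.89 and 11.4 TPM in Rnf2 KO libraries and at 29.2, 29.1 and 33.9 TPM in controls (-1.30, adjusted p = 0.458). For neither gene did the groups overlap, and the SE from the screen-wide spread was 0.36 for Pou5f1 and 0.57 for Nanog.

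Trophoblast genes divided into those that rose and those that fell. Of 27 tested trophectoderm and extraembryonic ectoderm markers (33 listed), 10 rose and 1 fell, 40.7% called beside 1.83% of all genes, with a median log2 of 0.74. With averaged libraries 3 rose and 0 fell. Esx1 and Rhox4b, among those that rose, were under 1 TPM in every control and passed the filter through the Rnf2 KO libraries alone. The summed level of the list, in which Prl3d1 had the largest share in controls, was lower in Rnf2 KO. Id2, an inhibitor of basic helix-loop-helix factors that is high in trophoblast, was at 880, 840 and 852 TPM in Rnf2 KO libraries and at 286, 272 and 284 TPM in controls (log2 1.61, SE 0.13, adjusted p = 1.74e-19). Elf5, a factor that marks trophoblast stem cells, was at 76.6, 80.4 and 74.5 TPM in Rnf2 KO libraries and at 22.0, 18.5 and 19.3 TPM in controls (1.90, SE 0.23, adjusted p = 5.16e-10). Both were higher than in the mean of the 4 other knockouts, Id2 by 0.96 (adjusted p = 1.39e-12) and Elf5 by 0.90 (adjusted p = 0.000735), although Elf5 averaged 82.4 TPM in Jarid2 KO. Against single knockouts in limma's fit, Id2 missed against Cbx2 KO (adjusted p = 0.083) and Jarid2 KO (adjusted p = 0.737). Elf5 missed against Cbx2 KO (63.1 TPM) and Jarid2 KO. The batch 3 control mean of Elf5, 19.9 TPM, was below the mean of 8 of the 10 control groups of the screen. These ranged from 0.0802 to 163 TPM, with 79.8 TPM in the batch 2 controls. Krt18, the keratin of simple epithelia, averaged 2076 ± 51 TPM in Rnf2 KO and 1241 ± 26 TPM in controls (0.74, adjusted p = 5.99e-08). Rhox6, a placental homeobox gene, averaged 280 ± 11 TPM in Rnf2 KO and 108 ± 16 TPM in controls (1.38, adjusted p = 3.6e-07). Duoxa2, Esx1, Krt7, Krt8 and Rhox4b were also among the members that rose. Eomes and Tfap2c, factors needed for trophoblast stem cells, were at 15.8 and 52.6 TPM in Rnf2 KO and at 8.81 and 49.0 TPM in controls, with adjusted p-values of 0.323 and 1.00.

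Among genes that fell most were hormones of differentiated trophoblast. The prolactin family, chosen after its values were seen, has 26 genes in the table. Of these 8 passed the expression filter and 8 fell, beside 0.797% of all tested genes called lower. The other 18 were below the filter, and a gene that passed through the control libraries alone could only fall, as Prl2c5 and Prl7d1 did, so this count is a description. With averaged libraries 3 fell. Prl3d1 (chromosome 13, 27094190 to 27100258) was at 784, 802 and 800 TPM in Rnf2 KO libraries and at 5766, 5930 and 5902 TPM in controls (-2.88, SE 0.69, adjusted p = 0.00565). Prl3d2 averaged 154 ± 5.4 TPM in Rnf2 KO and 1256 ± 6.9 TPM in controls, and Prl3d3 averaged 76.8 ± 5.6 TPM in Rnf2 KO and 857 ± 2.2 TPM in controls. Their promoters are printed here to show how alike the 3 genes are around their starts. Reads of near-copies can be assigned to the wrong gene, but the transcripts themselves were not compared. Each is 300 bases from RefSeq (GRCm38.p6, plus strand), from 250 before to 50 after the start, at chr13:27093939-27094238, chr13:27121445-27121744 and chr13:27156544-27156843, and capitals mark the longest run shared by all 3, of 87 bases.
Prl3d1: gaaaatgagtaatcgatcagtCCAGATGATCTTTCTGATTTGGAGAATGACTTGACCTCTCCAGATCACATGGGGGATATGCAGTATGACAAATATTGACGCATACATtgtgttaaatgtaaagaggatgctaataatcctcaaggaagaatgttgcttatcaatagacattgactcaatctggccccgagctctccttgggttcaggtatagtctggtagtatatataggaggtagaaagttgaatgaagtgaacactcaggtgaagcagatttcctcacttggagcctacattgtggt
Prl3d2: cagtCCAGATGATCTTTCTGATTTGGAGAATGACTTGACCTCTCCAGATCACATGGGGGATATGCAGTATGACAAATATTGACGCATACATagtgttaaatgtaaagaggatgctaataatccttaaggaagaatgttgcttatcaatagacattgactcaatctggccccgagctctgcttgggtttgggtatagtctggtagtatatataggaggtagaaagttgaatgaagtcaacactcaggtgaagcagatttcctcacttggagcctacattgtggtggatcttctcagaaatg
Prl3d3: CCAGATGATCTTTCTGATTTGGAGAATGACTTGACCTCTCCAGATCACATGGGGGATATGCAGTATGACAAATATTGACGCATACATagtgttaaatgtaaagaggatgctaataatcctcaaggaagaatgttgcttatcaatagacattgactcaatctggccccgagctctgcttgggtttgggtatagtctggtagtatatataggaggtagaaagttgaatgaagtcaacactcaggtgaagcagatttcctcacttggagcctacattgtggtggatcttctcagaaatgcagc
Slid to their best match without gaps, Prl3d1 and Prl3d2 agreed at 97.9% of 283 bases, Prl3d1 and Prl3d3 at 98.2% of 279, and Prl3d2 and Prl3d3 at 99.7% of 296. Their values are best read together.

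Prl2c5, a proliferin-family gene, was at 0.449, 0.275 and 0 TPM in Rnf2 KO libraries and at 69.2, 76.8 and 67.5 TPM in controls (-5.88, SE 0.59, adjusted p = 5.5e-14). Prl7d1 was listed at 0 in every Rnf2 KO library and at 38.2, 43.2 and 37.4 TPM in controls. The estrogen sulfotransferase gene Sult1e1 averaged 0.11 ± 0.19 TPM in Rnf2 KO and 46.5 ± 2.0 TPM in controls, and the pregnancy-specific glycoprotein genes Psg29 and Psg22 averaged 1.26 ± 0.38 and 1.41 ± 0.67 TPM in Rnf2 KO beside 22.9 ± 2.4 and 23.1 ± 4.5 TPM in controls. The other knockouts of the batch varied widely at these genes. Prl3d1 averaged 528 TPM in Atrx KO, 56.3 TPM in Cbx2 KO, 2448 TPM in Cbx7 KO and 5787 TPM in Jarid2 KO, and the Rnf2 KO differed from their mean by -0.02 on the log2 scale (adjusted p = 1.00). Prl7d1 averaged under 0.1 TPM in each of the 4. Prl2c5 and Psg29 were lower in Rnf2 KO than the mean of the other knockouts too (-4.37 with an adjusted p of 2.35e-12, and -2.29 with an adjusted p of 5.16e-07). So was Pla2g1b, a secreted phospholipase, at 7.40, 9.43 and 6.19 TPM in Rnf2 KO libraries and at 113, 107 and 97.2 TPM in controls (-3.64, adjusted p = 1.31e-19, and -3.02 with an adjusted p of 6.44e-21 against the other knockouts). Against each of the 4 alone in limma's fit, Pla2g1b passed every time. Prl2c5 missed against Jarid2 KO (2.80 TPM, adjusted p = 0.216). Psg29 missed against Atrx KO (3.87 TPM, adjusted p = 0.197) and Cbx2 KO (1.81 TPM), and averaged 73.4 TPM in Jarid2 KO. The remaining genes of the 12 largest falls were Pate12, Samsn1 and Prl5a1, with log2 changes of -3.98, -2.88 and -2.87. Pate12 averaged 0, 0.243, 0.11 and 0 TPM in Atrx, Cbx2, Cbx7 and Jarid2 KO, and Prl5a1 55.0, 7.48, 10.3 and 54.3 TPM. Sult1e1 averaged 0, 0, 0.212 and 27.6 TPM in the same order. Against the mean of the other knockouts Samsn1 passed (-1.15, adjusted p = 0.00365 in limma's fit), while Pate12, Prl5a1 and Sult1e1 did not. Sult1e1 and Samsn1 were under 1 TPM in every Rnf2 KO library, passed the filter through the controls alone and could only fall.

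**Figure D3:**
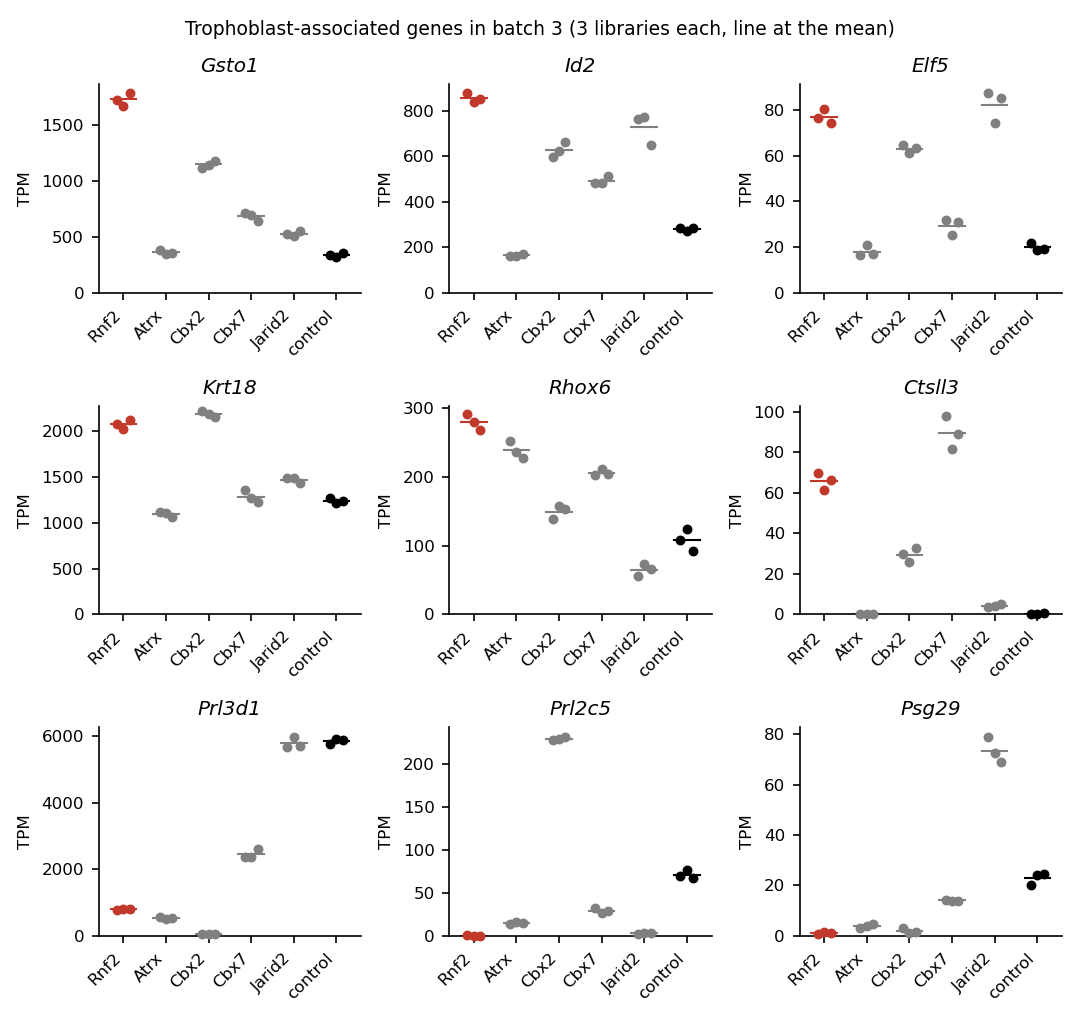
Levels in TPM of 9 genes expressed in trophoblast, among the largest changes or both, in the 6 genotypes of batch 3, 1 point per library and a line at the mean of 3. Gsto1 and Id2 are highest in Rnf2 KO, Ctsll3 is also high in Cbx7 KO, and Prl3d1 is highest in control and Jarid2 KO.

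The largest rises included Ctsll3, a cathepsin-like gene of a placental cluster on chromosome 13 (60798250 to 60802849), at 69.6, 61.6 and 66.4 TPM in Rnf2 KO libraries and at 0, 0.384 and 0.497 TPM in controls (5.71, SE 0.48, adjusted p = 6.42e-18). BC051665 of the same cluster, named after its values were seen, was at 139, 135 and 127 TPM in Rnf2 KO libraries and at 0.0707, 1.26 and 0.957 TPM in controls. The pair may share reads. Ctsll3 was also high in Cbx7 KO (89.5 TPM) and Cbx2 KO (29.5 TPM), at 4.28 TPM in Jarid2 KO and listed at 0 in Atrx KO. Gsto1, a glutathione transferase, was at 1724, 1673 and 1789 TPM in Rnf2 KO libraries and at 340, 321 and 357 TPM in controls (2.35, SE 0.12, adjusted p = 7.54e-34). It differed from the other knockouts as well, which averaged 361 to 1147 TPM, by 1.47 (adjusted p = 6.51e-26). The others of the 12 were Calcoco2, Dppa1, Fbp2, Ccnb1ip1, Cidea, Slc1a1, Duoxa2, Aqp3, Tspan1 and Crxos, with log2 changes between 2.23 and 3.29. Among them are an autophagy receptor (Calcoco2), a gluconeogenic phosphatase (Fbp2), a crossover regulator of meiosis (Ccnb1ip1), a lipid droplet protein (Cidea) and a water and glycerol channel (Aqp3). Of the 12, Ctsll3, Gsto1, Duoxa2 and Cidea passed against the mean of the other knockouts. Ctsll3, Dppa1 and Cidea were under 1 TPM in every control and passed the filter through the Rnf2 KO libraries alone. These 3 could only rise.

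Promoters of the 12 were searched for CACGTG, the E-box read by MYC-family and PRC1.6 factors, on both strands. RefSeq held 10 of them, and 2 carried it, Ctsll3 and Fbp2, beside 10.9% of the 8674 tested genes with an entry and 7.24% of all 27025 promoters of the same length. They are shown on the minus strand of GRCm38.p6 at chr13:60802795-60803094 and chr13:62858351-62858650, with the E-box in capitals.
Ctsll3: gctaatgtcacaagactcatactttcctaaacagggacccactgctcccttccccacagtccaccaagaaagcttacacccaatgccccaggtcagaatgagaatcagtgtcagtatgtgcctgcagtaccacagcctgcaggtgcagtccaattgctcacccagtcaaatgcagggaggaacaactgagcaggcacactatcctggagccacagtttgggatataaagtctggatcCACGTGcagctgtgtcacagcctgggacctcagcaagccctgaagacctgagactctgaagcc
Fbp2: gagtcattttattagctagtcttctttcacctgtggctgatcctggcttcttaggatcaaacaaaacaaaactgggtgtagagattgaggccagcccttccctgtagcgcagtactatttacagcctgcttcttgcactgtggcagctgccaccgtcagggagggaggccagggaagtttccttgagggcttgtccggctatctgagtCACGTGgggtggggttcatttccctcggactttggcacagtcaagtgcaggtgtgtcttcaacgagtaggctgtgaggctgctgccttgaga
A match is a description and not a bound site. Of the 86 genes that fell, 80.2% had a promoter entry, with a median CpG ratio (observed over expected) of 0.364 beside 0.78 for the tested genes with an entry. Of the genes that rose 79.5% had an entry, under the 80% set as a minimum for such a summary, so that check is void.

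Developmental Polycomb targets were low in TPM in both groups. Of 39 Hox genes, which set positional identity along the body axis, 31 were below the filter and 8 were tested, of which 3 rose and 0 fell (37.5% called beside 1.83% of all genes, median 0.57), and 0 rose with averaged libraries. Hoxa7 passed the filter through the Rnf2 KO libraries alone and could only rise, so this count is a description. Hoxa7 (chromosome 6, 52214491 to 52221854) was at 2.60, 2.74 and 2.79 TPM in Rnf2 KO libraries and at 0.388, 0.408 and 0 TPM in controls (1.57, SE 0.31, adjusted p = 0.000299). Hoxa10 was at 3.17, 4.65 and 3.73 TPM in Rnf2 KO libraries and at 3.12, 0.761 and 1.07 TPM in controls (0.97, adjusted p = 0.0499), and Hoxc4 at 2.89, 2.40 and 3.47 TPM in Rnf2 KO libraries and at 1.38, 2.11 and 0.878 TPM in controls (0.70, adjusted p = 0.0179). Hoxa7 and Hoxa10 were also above the mean of the other knockouts (0.97, adjusted p = 0.0134, and 1.19, adjusted p = 0.000137), while Hoxc4 was higher in Atrx KO (4.66 TPM). Against single knockouts in limma's fit, Hoxa7 missed against Cbx2 KO (adjusted p = 0.212) and Jarid2 KO (1.89 TPM). Hoxa10 missed against Jarid2 KO (adjusted p = 0.0826). With batch 3 fitted alone Hoxc4 and Hoxa10 missed the threshold (adjusted p = 0.0749 and 0.0569). Of 93 other developmental targets 72 were below the filter, and of the 21 tested 1 rose and 0 fell, with 0 rising with averaged libraries. That one, which also passed the filter through the Rnf2 KO libraries alone and could not have fallen, was Pitx1, a hindlimb and pituitary factor, at 2.01, 3.49 and 2.29 TPM in Rnf2 KO libraries and at 0.775, 0.941 and 0.55 TPM in controls (1.02, adjusted p = 0.0423).

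**Figure D4:**
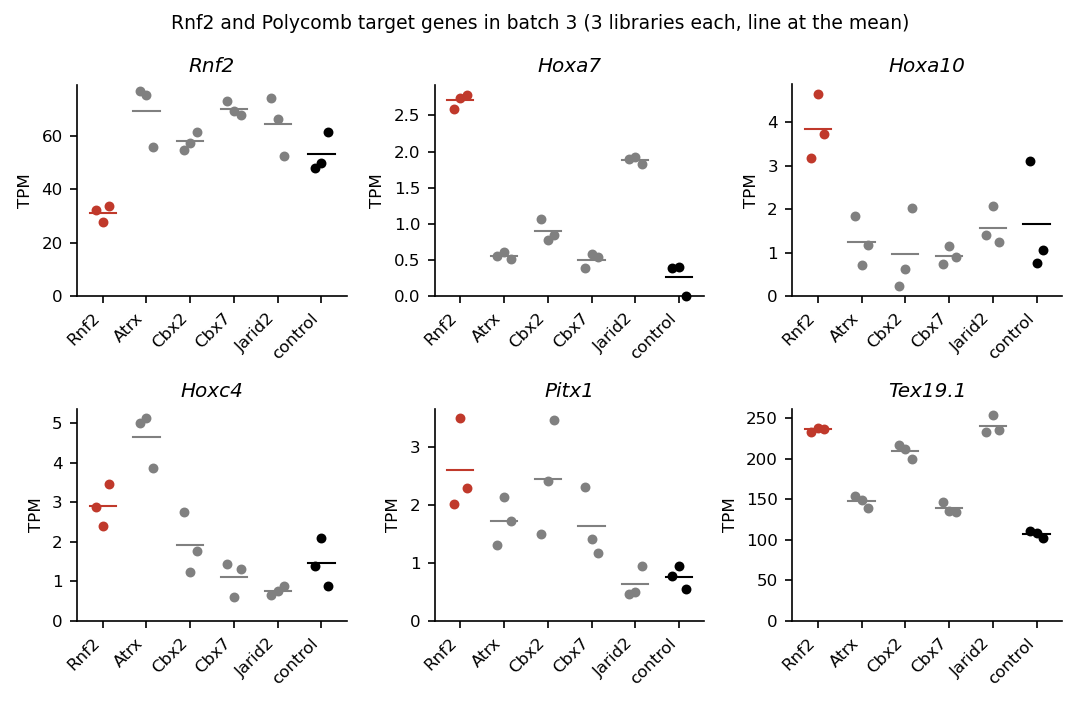
Levels in TPM of Rnf2, 4 developmental Polycomb targets and Tex19.1 in the 6 genotypes of batch 3, 1 point per library and a line at the mean of 3. Rnf2 is lowest in its own knockout, Hoxa7 and Hoxa10 are highest there in every library, and Tex19.1 is about as high in Jarid2 KO.

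Of 35 tested germline and meiosis genes (45 listed), 2 rose and 0 fell (5.71% called beside 1.83% of all genes, median 0.71), and both calls were lost with averaged libraries. Tex19.1, which restrains retrotransposons in germ cells and placenta, was at 233, 238 and 237 TPM in Rnf2 KO libraries and at 111, 109 and 102 TPM in controls (1.13, SE 0.17, adjusted p = 8.04e-07). Xlr3c, one of several near-identical X-linked copies, averaged 63.1 ± 7.2 TPM in Rnf2 KO and 28.1 ± 2.8 TPM in controls (1.14, adjusted p = 0.0149). The axial element gene Sycp3 averaged 24.1 TPM in Rnf2 KO and 10.4 TPM in controls (adjusted p = 0.379), and the RNA-binding gene Dazl 12.9 TPM in Rnf2 KO and 4.15 TPM in controls (adjusted p = 0.38). Against the other knockouts 6 germline genes were higher and 0 lower, beside 1.41% of all genes called. Of 31 germline promoters in RefSeq 35.5% held CACGTG and 19.4% held GGCGGGA, an E2F6-type motif, beside 10.9% and 21.8% of the 8674 tested genes with an entry and 7.24% and 11.4% of all 27025 promoters. Neither Tex19.1 nor Xlr3c held either motif.

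In limma's screen-wide fit 0 of 10 PRC1 core, 0 of 21 variant PRC1 and 0 of 11 PRC2 subunit genes passed. At an unadjusted p under 0.05 the counts were 2, 0 and 0. With batch 3 fitted alone 3, 4 and 1 passed, in a fit that called 15.3% of all genes. Rnf2 itself is in the PRC1 core list and is among the 2 and the 3 of that list. The PRC1 reader Cbx7 averaged 10.9 ± 1.9 TPM in Rnf2 KO and 9.10 ± 1.17 TPM in controls. The PRC2 subunit Eed averaged 163 ± 8.4 TPM in Rnf2 KO and 150 ± 5.3 TPM in controls, and Rbbp7, a histone chaperone shared with PRC2, 1178 ± 58 TPM in Rnf2 KO and 1138 ± 51 TPM in controls. Of 7 CDK inhibitor genes, among which Cdkn2a is a classic Polycomb target, 0 passed (1 at an unadjusted p under 0.05 and 1 with batch 3 alone). Cdkn2a averaged 2.35 TPM in Rnf2 KO and 1.86 TPM in controls. The count was also 0 for H2A deubiquitination and H3K27 demethylation (11 tested), H3K4 methylation (15), mitosis (23) and ribosome biogenesis (23), with 0, 0, 1 and 2 at an unadjusted p under 0.05 and 2, 1, 2 and 3 with batch 3 fitted alone.

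Of 26 tested primitive endoderm markers, 1 rose and 2 fell (11.5% called beside 1.83% of all genes, median -0.08), of which Apoe alone was called with averaged libraries. Apoe, a lipid carrier that visceral endoderm makes in quantity, was at 516, 519 and 568 TPM in Rnf2 KO libraries and at 1197, 1180 and 1287 TPM in controls (-1.19, SE 0.12, adjusted p = 3.77e-14), and was lower than the mean of the other knockouts (-0.74, adjusted p = 1.92e-09). Ttr, the thyroxine carrier, averaged 5.26 ± 0.27 TPM in Rnf2 KO and 24.1 ± 2.0 TPM in controls (-2.0, adjusted p = 0.000189). Rhox5, a homeobox gene that extraembryonic tissue also expresses, rose to 1725 ± 54 TPM in Rnf2 KO, against 1168 ± 27 TPM in controls (0.56, adjusted p = 0.000277). The endoderm factors Gata4 and Sox17 averaged 7.06 and 10.5 TPM in Rnf2 KO and 7.10 and 14.99 TPM in controls, and neither passed. In the remaining lists Perp (p53 targets), Mest (imprinted genes), Psat1 (amino acid synthesis), Ndrg1 (hypoxia) and Hsp90aa1 (heat shock) rose, with log2 changes from 0.34 to 1.60, while Cd52 (blood, -2.25) and Gad1 (neural, -0.78) fell, and these 7 calls were lost with averaged libraries. Gad1 was under 1 TPM in every Rnf2 KO library, passed the filter through the controls alone and could only fall. Decidual and stromal markers had 3 tested members of 16, with 0 called in limma's screen-wide fit and 0 at an unadjusted p under 0.05. With batch 3 fitted alone 3 were called, beside 15.3% of all genes. The decidual and stromal markers summed to 18.98 to 20.8 TPM in Rnf2 KO libraries and 33.7 to 38.8 TPM in controls. Blood markers summed to 24.0 to 36.8 TPM in Rnf2 KO libraries and 29.9 to 31.1 TPM in controls. The part these tissues have in the results was not tested.

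**Figure D5:**
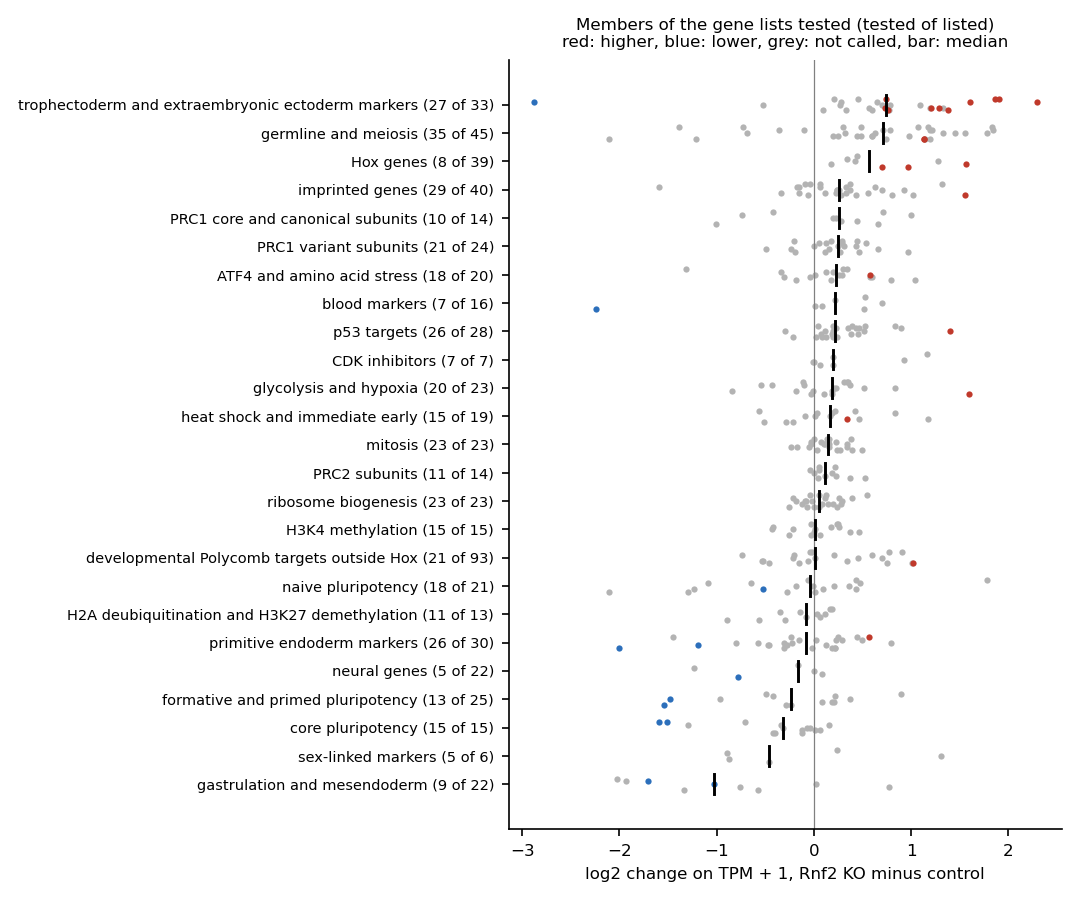
Log2 change between Rnf2 KO and control on TPM + 1 for each tested member of the gene lists, 1 point per gene and a black bar at the list's median, with the number tested and listed beside its name. Trophectoderm markers sit highest, at a median of 0.74 with 10 red members, and gastrulation genes lowest, at -1.03 with 2 blue members.

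Against the mean of the Atrx, Cbx2, Cbx7 and Jarid2 knockouts, 152 genes (1.41%) differed, 86 higher (0.797%) and 66 lower (0.612%) in Rnf2 KO. Of the 112 genes higher than in controls 40 (35.7%) passed here in the same direction, and of the 86 lower ones 39 (45.3%), with 0 in the opposite direction. Both comparisons use the same 3 Rnf2 KO libraries. Set against each knockout alone, 338 genes differed from Atrx KO (3.13%), 173 from Jarid2 KO (1.6%), 94 from Cbx7 KO (0.871%) and 68 from Cbx2 KO (0.63%). Cbx2 and Cbx7 encode chromodomain readers of canonical PRC1, Jarid2 a cofactor of PRC2, and Atrx a chromatin remodeller. The counts were not compared by a test. Bex1, a small adaptor protein gene named after its values were seen, averaged 1145 ± 23 TPM in Rnf2 KO and 687 ± 26 TPM in controls, and was above the mean of the 4 other knockouts by 0.64 (adjusted p = 8.72e-12).

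The PRC2 knockouts were set beside the Rnf2 KO. In Suz12 KO of batch 2, 1943 genes (18%) differed from that batch's controls, 11.2% of those tested higher and 6.77% lower, and 916 (8.49%) had an Rnf2 KO effect that differed from the Suz12 KO effect, 455 higher (4.22%) and 461 lower (4.27%). Batch and genotype cannot be told apart in this difference beyond what each batch's controls remove. Of the 112 genes higher in Rnf2 KO 39 were also higher in Suz12 KO (34.8%, or 3.22% of the 1212 higher there) and 34 were lower (30.4%, or 4.65% of the 731 lower there). Of the 86 genes lower in Rnf2 KO 19 were also lower in Suz12 KO (22.1%) and 15 were higher (17.4%). In the Suz12 Eed double KO, 829 of 11250 genes differed (7.37%), 412 of them higher (3.66% of those tested) and 417 lower (3.71%). Of 101 genes higher in Rnf2 KO and tested in both tables, the double KO was higher at 38 (37.6%, or 10.4% of its 366 higher genes) and lower at 0. Of 63 lower ones 9 were lower there (14.3%, or 2.49% of its 361) and 11 higher (17.5%, or 3.01% of its 366). Across all 10022 genes tested in both, the effects correlated at r = 0.13, and across 10792 genes Rnf2 KO and Suz12 KO effects at r = 0.08. Genes are not independent replicates. Krt18 was among the shared rises, at 2954 TPM in the double KO and 951 TPM in its controls. The prolactin genes went the other way, with Prl3d1 at 172 TPM in the double KO and 1.17 TPM in its controls. Lef1 and Tdgf1 were lower there too, at 15.2 and 219 TPM beside 42.2 and 370 TPM in the controls of that table (log2 -1.42 and -0.75, adjusted p = 0.00337 and 0.0138).

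Of the 51 named genes that passed, 38 did so whichever library was left out. Pitx1 missed the threshold without any 1 of the 6 libraries, Hoxa10, Hsp90aa1 and Tspan1 without any of 5, Etv5, Hoxc4, Xlr3c and Zscan10 without any of 4, Cd52 and Gad1 without any of 3, and Mest, Ndrg1 and Sp5 without 1. With the Rnf2 KO and control groups each averaged to 1 library, most of the 51 no longer passed. Rises that still passed were Ctsll3, Dppa1, Gsto1, Id2, Elf5 and Krt18. Falls that still passed were Prl2c5, Sult1e1, Prl7d1, Pate12, Pla2g1b, Prl3d3, Psg29, Samsn1 and Apoe.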

How the data were processed

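Smart-seq2 libraries were deposited by the authors as TPM per gene. The genome was mm10, and the tools listed are StringTie 2.2.1, HISAT2 2.2.1 and Cufflinks, per the submitters' processing notes, with no role stated for each. TPM holds no depth, so a depth difference between libraries cannot be seen. The members and gene lists were chosen with earlier results of these data known.

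From these values, log2(TPM + 1) of 146 screen libraries (148, with 3 near-identical Aurkb KO libraries averaged) was fitted in limma 3.58.1 (R 4.3.3) with a mean per batch and genotype and a variance trend. Of 25006 genes 10792 were tested, those that reached 1 TPM in 3 or more of the 6 Rnf2 KO and control libraries, with Benjamini-Hochberg adjustment and a threshold of 0.05. Every adjusted p in the text is limma's. Contrasts were Rnf2 KO against control, Rnf2 KO against the mean of the 4 other batch 3 knockouts, and Rnf2 KO effect minus Suz12 KO effect. The Suz12 Eed table, normalized separately, was fitted alone, and the other tables of the series were not used here. The fit was tested on simulated data.

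Named genes were Rnf2, the 12 largest rises and 12 largest falls (groups that do not overlap, a higher mean of at least 5 TPM, no clone names, predicted genes or pseudogenes), up to 4 passing members per list by p, and up to 2 Polycomb members where none passed. Coordinates are from GENCODE M21, which held 10559 of the 10792 symbols. Promoters are from RefSeq (GRCm38.p6, the first 300-base entry of each gene). Figures were drawn with Python 3.11.15 and matplotlib 3.10.9. Alternatives were other filters, pseudocounts, normalization, library weights, samples in the fit, a minimum fold of 2, a replicate block and leaving out each library.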

Additional observations from a re-analysis of the deposited data

Results flagged for a closer look

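Of the 51 named genes called in Rnf2 KO of batch 3, 13 were called in the opposite direction in Suz12 KO of batch 2. For these 13 the difference between the effects passed limma's interaction test. Effects of opposite sign add in their difference, so that test adds little to the separate calls. Among all 112 genes higher in Rnf2 KO, 34 were lower in Suz12 KO (30.4%). Among all 86 lower genes, 15 were higher in Suz12 KO (17.4%). In Suz12 KO 18% of all tested genes were called. The batches have separate controls, and batch and genotype cannot be told apart beyond what these remove. Values are log2 effects of Rnf2 KO minus those of Suz12 KO on TPM + 1.

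The difference was positive for Calcoco2 (4.77), Duoxa2 (4.66), Ccnb1ip1 (4.16), Crxos (3.92), Slc1a1 (3.69), Id2 (3.05), Psat1 (1.6), Rhox5 (1.37) and Hsp90aa1 (1.05). Id2 averaged 858 TPM in Rnf2 KO and 281 TPM in the batch 3 controls, and 454 TPM in Suz12 KO and 1235 TPM in the batch 2 controls. Rhox5 averaged 1725 TPM in Rnf2 KO and 1168 TPM in its controls, and 1958 TPM in Suz12 KO and 3434 TPM in its controls. The difference was negative for hormones and glycoproteins of trophoblast, namely Prl2c5 (-15.2), Psg22 (-8.31), Prl7d1 (-6.52) and Psg29 (-5.39). Prl2c5 averaged 0.242 TPM in Rnf2 KO and 71.1 TPM in its controls, and 670 TPM in Suz12 KO and 0.0416 TPM in its controls. Prl7d1, Psg22 and Psg29 were listed at 0 in every batch 2 control.

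Each batch 2 library was also left out in turn, an alternative chosen after these values were seen. The Suz12 KO call was lost without at least 1 library for 5 of the 13, namely Calcoco2, Ccnb1ip1, Crxos, Prl7d1 and Slc1a1. For Calcoco2, Ccnb1ip1, Crxos and Slc1a1 the Suz12 KO effect stayed negative whichever library was left out. The difference itself stayed called for all 13. Prl7d1 was at 0, 0 and 10.71 TPM in the Suz12 KO libraries, and without the third its Suz12 KO effect was 0 and the difference -5.34 (adjusted p = 7.5e-16 in limma's fit). The lowest difference of the other 4 without a Suz12 KO library was 4.13 for Calcoco2 (without replicate 1), 3.64 for Ccnb1ip1 and 3.43 for Slc1a1 (without replicate 2), and 2.87 for Crxos (without replicate 3).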

How the results depend on the processing

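Across the alternatives run, 0 of the 57 named genes had a called direction reversed. The count of genes that differed between Rnf2 KO and control, 198, became 1654 with batch 3 alone, 1871 with the 2 groups alone, 338 with no filter, 2160 with library weights and 25 with each batch 3 group averaged to 1 library, an alternative chosen after the libraries were seen to be alike. Leaving out 1 library gave 128 (without Rnf2 KO replicate 1) to 142. The count against the other knockouts, 152, became 1024 with batch 3 alone, 99 with a pseudocount of 0.1, 283 with no filter, 1832 with library weights, 83 with a minimum fold of 2 and 11 with averaged libraries, and was 85 to 104 with 1 Rnf2 KO library left out. For the difference from the Suz12 KO effect, 916 became 2538 with library weights and 247 with averaged libraries, and was 752 to 786 with 1 library left out. The cause was not tested. The other alternatives stayed within 1.5 times.

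A pseudocount of 0.1 ended 12 calls of named genes, Prl3d1, T and Sp5 among them. Same-numbered Rnf2 KO and control libraries deviated together at r of 0.0123, 0.0031 and 0.0108, so no pairing by number was seen. The replicate block gave 244, 177 and 1106 calls for the 3 contrasts. Among the controls, Rnf2 KO library 2 correlated best with control 1, at r = 0.0129. Hoxa10 and Pitx1 lost their calls under the block.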
